A study of Mus musculus with 12 samples.

Results

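The DNA replication and E2F target genes are a set of 42 genes, out of 19938 genes measured, listed by symbol, with earlier results of these data known, from genes with known roles in copying the genome. They were followed in pools of early tumor islets of Rip1Tag2 mice on a C57BL/6 background, all 8 weeks old, in which the rat insulin promoter drives SV40 T antigen in the beta cells of every animal, so that both groups carry the oncogene and no islets without it were compared here. Pancreata were digested with collagenase, islets were purified on a density gradient and sorted as angiogenic or non angiogenic, and the total RNA of every pool was hybridised to 1 Affymetrix mouse gene array. There were 6 angiogenic and 6 non angiogenic arrays, numbered as replicates 1 to 6 in each group, and the question was which transcripts differ between islets that have switched to vessel growth and islets that have not. Since the number of mice or islets behind a pool is not labelled, and the pools may share mice, every p-value measures only the spread between these pools, which may be technical. A level is the deposited log2 value of the brightest transcript cluster that names the gene alone, a cluster being the group of probes that reads 1 transcript, and a difference is the mean level of angiogenic minus that of non angiogenic islets, so that 1 unit is a doubling. All 42 genes had such a cluster, and 40 of them lay above the median level of all genes.

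A cell that is about to copy its DNA first loads the MCM helicase at origins, a step called licensing that needs the origin recognition complex, Cdc6 and Cdt1. The helicase is then started by Cdc45 and the GINS complex, primase and the DNA polymerases extend the new strands, and ribonucleotide reductase and thymidylate synthase supply the nucleotides. Genes for all these steps are switched on together by E2F transcription factors, which the retinoblastoma protein holds back in resting cells. T antigen binds the retinoblastoma protein and its relatives and so frees E2F.

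Many promoters of such genes carry an E2F site, and the promoters of the 42 genes were searched for its core to show what they share besides function. The core was taken as the 8 letters TTTGGCGC or TTTCCCGC or TTTGCCGC or TTTCGCGC on either strand, in RefSeq windows of 300 bases that reach from 250 bases before to 50 bases after a gene's start (build GRCm38.p6). Of the 34 genes with a window, 15 held a core (44.1%), against 704 of 27025 genes (2.6%) and 2.26% of all 32851 windows. The list was chosen as replication and E2F target genes, so this contrast is not independent of how the list was made. The shares by role were 3 of 4 licensing genes, 5 of 8 helicase genes, 4 of 10 synthesis genes, 1 of 3 chromatin genes, 2 of 5 E2F and cyclin E genes and 0 of 4 nucleotide genes. A match is a description of letters and not a bound site, and a window without a match says only that these letters are not in it. Mcm4, Ccne2, Gins2, Pole, Gins4, Gins1, Rfc2 and Prim2 had no window. The last 200 bases before the start are shown for Mcm5, Mcm7 and E2f7, the 3 genes of smallest p in the comparison of the groups that hold a core there, and for Rrm2, the gene of largest difference, from the nucleotide group that lacks the core. Capitals mark cores, each sequence runs 5′ to 3′ on the gene's strand, and in Mcm5 the capitals are 2 overlapping cores, TTTCGCGC on the shown strand and TTTGGCGC on the other. They lie at chr8:75109309-75109508 (plus strand) for Mcm5, chr5:138171884-138172083 (minus strand) for Mcm7, chr10:110745239-110745438 (plus strand) for E2f7 and chr12:24708054-24708253 (plus strand) for Rrm2.
Mcm5: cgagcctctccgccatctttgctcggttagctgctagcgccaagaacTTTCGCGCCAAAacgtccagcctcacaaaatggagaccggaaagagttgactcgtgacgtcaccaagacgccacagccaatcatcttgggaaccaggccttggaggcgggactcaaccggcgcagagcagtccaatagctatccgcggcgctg
Mcm7: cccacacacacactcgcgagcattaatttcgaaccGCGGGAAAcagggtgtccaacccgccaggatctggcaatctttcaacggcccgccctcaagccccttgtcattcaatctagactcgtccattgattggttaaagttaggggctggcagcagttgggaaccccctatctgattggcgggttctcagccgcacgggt
E2f7: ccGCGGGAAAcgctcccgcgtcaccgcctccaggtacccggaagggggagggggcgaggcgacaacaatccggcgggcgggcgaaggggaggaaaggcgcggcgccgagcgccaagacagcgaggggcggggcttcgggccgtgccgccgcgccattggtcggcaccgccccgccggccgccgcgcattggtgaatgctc
Rrm2: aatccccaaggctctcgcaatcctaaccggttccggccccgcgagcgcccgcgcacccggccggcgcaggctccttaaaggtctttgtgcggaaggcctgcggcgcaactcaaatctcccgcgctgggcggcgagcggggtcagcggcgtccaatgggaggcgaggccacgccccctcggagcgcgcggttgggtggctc

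The 12 arrays did not differ by group alone. The first principal component over all genes (41.5% of the variance) put the replicates numbered 1 to 3 of a group on lower values than those numbered 4 to 6, and these are treated as 2 sets of 3 arrays per group. The labels name no such sets, and a group difference can be taken within each of them. The median level over all clusters differed between arrays by at most 0.08. Beta cell markers were bright in both groups, with array means of the 11 measured markers from 11.89 to 12.02 in angiogenic and from 11.90 to 12.13 in non angiogenic islets. Non angiogenic replicate 4 stood apart by its lymphocyte markers (array mean 6.89, others of its group 5.90 to 6.07). It also had the highest acinar markers of its group (12.21, others 7.72 to 10.03), within a wide spread. Angiogenic replicate 2 stood apart by low acinar markers (7.83, others 9.99 to 10.98). The number of arrays sets how precise a difference can be.

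The 42 genes leaned together towards angiogenic islets by small amounts, and none passed the test across all genes when all arrays were compared without regard to the sets. The median difference was 0.14, with quartiles of 0.08 and 0.18, while the median over all genes was -0.02. The difference was positive for 40 of the 42 genes (95.2%), against 40.1% of all genes, and negative only for Mcm4 and Ccne2. By limma with an adjusted p under 0.05, 0 of the 42 were higher, against 3.55% of all genes, and 0 were lower, against 0.948%. At an unadjusted p under 0.05, 17 were higher (40.5%), against 7.76% of all genes, and 0 were lower, against 6.59%. The methods' t-test also called 17 higher before adjustment, against 7.67% of all genes, and 0 after it, against 2.94%. Among the 9969 genes above the median level, 17 of 40 were higher at an unadjusted p under 0.05, against 9.35%, and 38 of 40 had a positive difference, against 44.7%. Without non angiogenic replicate 4 the median difference was 0.15 and 1 gene passed (Rrm2), while 3.51% of all genes were higher. Without angiogenic replicate 2 the median was 0.15 and 0 passed, while 3.03% of all genes were higher. In bulk RNA, more cells in cycle and more of these transcripts per cell cannot be told apart.

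Within each set the separation of the groups was clearer than over all arrays. The mean level of the 42 genes was 9.33, 9.42 and 9.36 in non angiogenic replicates 1 to 3 and 9.57, 9.53 and 9.52 in replicates 4 to 6. In angiogenic islets it was 9.51, 9.55 and 9.48 in replicates 1 to 3 and 9.69, 9.70 and 9.63 in replicates 4 to 6. Every angiogenic array thus lay above every non angiogenic array of its own set, while non angiogenic replicates 4 to 6 reached into the range of angiogenic replicates 1 to 3. Measured against the mean of its set, an angiogenic array had between 29 and 39 of the 42 genes above it and a non angiogenic array between 4 and 18.

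**Figure D1:**
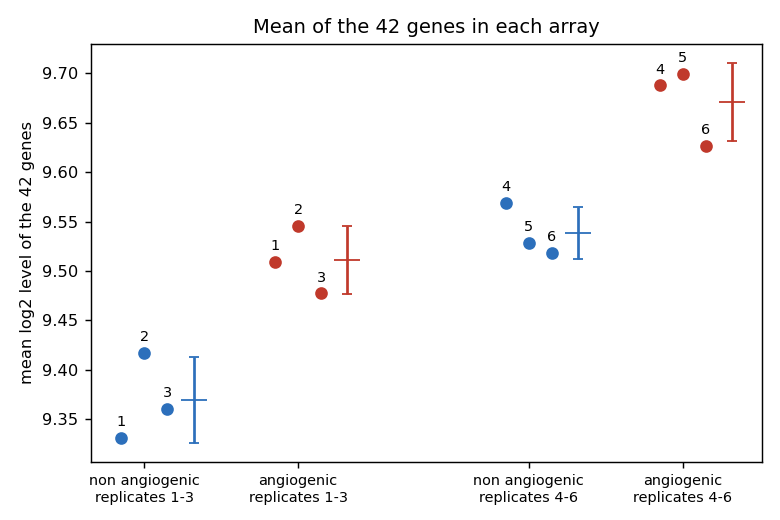
Mean log2 level of the 42 replication and E2F target genes in each array (points, numbered by replicate), with the mean and SD of each group of 3 arrays beside them, for non angiogenic (blue) and angiogenic islets (red). In replicates 1 to 3 the means run from 9.33 to 9.42 and from 9.48 to 9.55, and in replicates 4 to 6 from 9.52 to 9.57 and from 9.63 to 9.70.

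With the set as a block in limma, 9 of the 42 genes passed an adjusted p under 0.05 as higher in angiogenic islets (21.4%), against 5.88% of all genes, and 0 as lower, against 2.74%. These were Mcm2, Mcm7, Cdc45, Gins1, Rfc4, Rfc5, Rrm1, Rrm2 and Ccne1, and none of them had passed without the block. In replicates 1 to 3 alone, Rfc4 and Rrm2 passed, and 2.37% of all genes were higher. In replicates 4 to 6 alone, Gins1 and Rrm2 passed, and 3.11% of all genes were higher. The difference was positive in both sets for 35 of the 42 genes (83.3%), against 23.8% of all genes. The arrays of the groups did not overlap, with angiogenic islets above, for 17 genes in replicates 1 to 3 (40.5%), against 9.35% of all genes, and for 21 in replicates 4 to 6 (50%), against 10.7%. Over all arrays no member separated in this way, against 2.85% of all genes. No member passed limma's interaction test, which asks if the group difference differed between the sets and called 0.00502% of all genes. The lowest adjusted p was 0.777 for Rfc4 and Gins2, the 2 genes with an unadjusted p under 0.05. With 3 arrays per group and set, this test cannot show that the differences were equal in both sets.

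**Figure D2:**
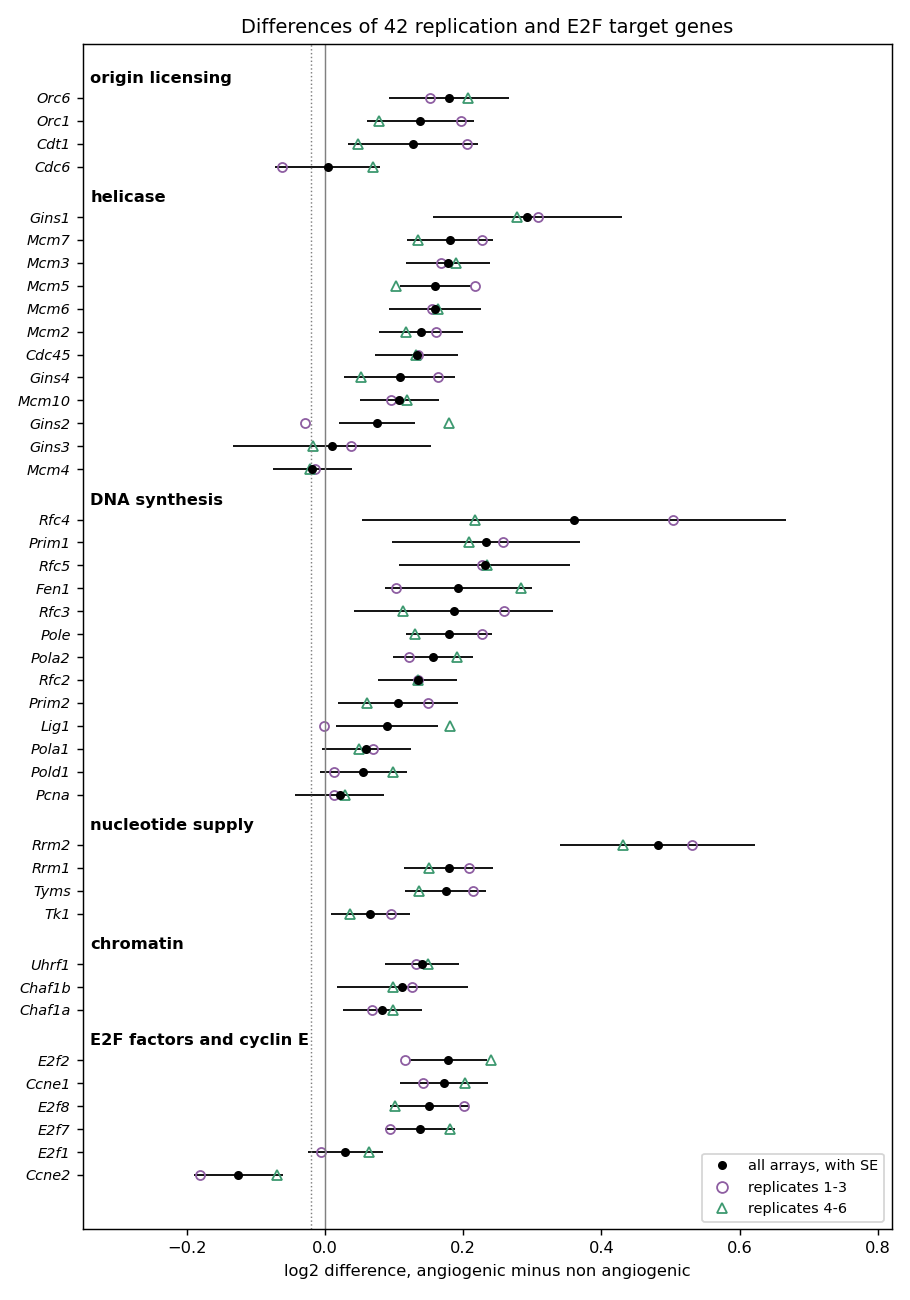
Log2 difference, angiogenic minus non angiogenic, of each of the 42 genes by role, for all arrays (black, with SE), replicates 1 to 3 (open circles) and replicates 4 to 6 (open triangles). The dotted line is the median of all genes, -0.02, and 40 of the 42 black points lie to the right of 0, with Rrm2 the farthest at 0.48.

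The 4 licensing genes had positive differences, from near 0 to 0.18, against 40.1% of all genes. None reached an unadjusted p under 0.05 by limma, where 7.76% of all genes were higher. Orc6, a subunit of the origin recognition complex, had a lowest, median and highest level of 10.53, 10.84 and 10.97 in angiogenic islets and of 10.36, 10.62 and 10.78 in non angiogenic islets. Its difference of 0.18 (SE 0.09) had an adjusted p of 0.371 from limma, and 4 of 6 angiogenic arrays lay above every non angiogenic one. Orc1, the large subunit of the same complex, ran through 7.06, 7.16 and 7.23 in angiogenic and 6.65, 7.05 and 7.19 in non angiogenic islets, with a difference of 0.14 (SE 0.08; adjusted p = 0.479). The lowest value was that of non angiogenic replicate 3, which stood apart from the other 5 of its group. Cdt1, which brings the helicase to the origin, had levels of 9.10, 9.21 and 9.45 against 8.90, 9.12 and 9.34 and a difference of 0.13 (SE 0.09; adjusted p = 0.635). Its groups did not overlap in replicates 1 to 3, where the difference was 0.21, and overlapped in replicates 4 to 6, where it was 0.05. Cdc6, the loading ATPase, had levels of 7.84, 8.15 and 8.26 against 7.90, 8.17 and 8.22, and its difference of 0.00366 (SE 0.08; adjusted p = 0.992) had a 95% interval from -0.16 to 0.17. Its direction was not settled, with -0.06 in the first set and 0.07 in the second, and it turned to -0.01 with median centring.

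In the helicase group 4 of 12 genes passed the block test, against 5.88% of all genes. The difference was positive for 11 of the 12, against 40.1% of all genes, with a median of 0.14. Mcm2 to Mcm7 form the ring that unwinds DNA. Mcm7 had a lowest, median and highest level of 10.22, 10.34 and 10.42 in angiogenic islets and of 9.92, 10.15 and 10.29 in non angiogenic islets, a difference of 0.18 (SE 0.06; adjusted p = 0.146 from limma, 0.0274 with the set as a block). Its groups did not overlap within either set. Mcm2 had levels of 10.75, 10.89 and 11.01 against 10.64, 10.74 and 10.88, and its difference of 0.14 (SE 0.06) had an adjusted p of 0.302, and of 0.0323 with the block. It too separated within both sets, although non angiogenic replicates 4 to 6 reached into the range of angiogenic replicates 1 to 3. Mcm5, whose promoter has the paired cores shown above, had levels of 10.26, 10.30 and 10.50 against 10.11, 10.16 and 10.27, a difference of 0.16 (SE 0.05; adjusted p = 0.11). Angiogenic replicate 1 held the highest value and stood apart from the other 5 angiogenic arrays, and 4 of the 6 lay above all non angiogenic ones. Mcm3 had levels of 9.29, 9.39 and 9.54 against 9.08, 9.22 and 9.35, a difference of 0.18 (SE 0.06; adjusted p = 0.144). Mcm6 had levels of 9.85, 10.05 and 10.22 against 9.70, 9.89 and 9.99, a difference of 0.16 (SE 0.07; adjusted p = 0.269). For both, 4 of 6 angiogenic arrays were above every non angiogenic array, and the groups overlapped in each set. Mcm4 was the exception in the ring, with angiogenic levels from 9.97 to 10.11 inside the non angiogenic range of 9.89 to 10.19 and a difference of -0.02 (95% interval -0.14 to 0.10).

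Of the factors that start the helicase, Gins1 and Cdc45 passed the block test. Gins1, a subunit of the GINS complex, had the third largest difference of the 42 genes, 0.29 (SE 0.14; adjusted p = 0.35 from limma, 0.0134 with the block). Its levels were 7.09, 7.48 and 7.24 in angiogenic and 6.74, 7.07 and 7.08 in non angiogenic replicates 1 to 3, and 7.75, 7.71 and 7.64 against 7.38, 7.45 and 7.43 in replicates 4 to 6. All 3 angiogenic arrays were above all 3 non angiogenic arrays in both sets, with differences of 0.31 and 0.28. Cdc45, which joins MCM and GINS into the moving helicase, had a lowest, median and highest level of 8.89, 9.04 and 9.16 against 8.77, 8.91 and 9.02. Its difference of 0.13 (SE 0.06) was the same in both sets and had an adjusted p of 0.322, and of 0.0463 with the block. Mcm10, a helicase cofactor, had a difference of 0.11 and Gins4 one of 0.11. Gins2 had -0.03 in replicates 1 to 3 and 0.18 in replicates 4 to 6, and Gins3 had 0.04 and -0.02. The differences between the GINS subunits, which work as 1 complex, were not tested.

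The 13 synthesis genes all had a positive difference, against 40.1% of all genes, with a median of 0.16 and a range from 0.02 to 0.36. The block test called 2 of them, both clamp loader genes, against 5.88% of all genes. Rfc2 to Rfc5 encode small subunits of replication factor C, which loads the sliding clamp. Rfc4 had levels of 10.15, 10.02 and 10.09 in angiogenic and 9.41, 9.74 and 9.60 in non angiogenic replicates 1 to 3, and of 11.10, 11.10 and 11.00 against 11.05, 10.78 and 10.72 in replicates 4 to 6. The sets lay 1.12 apart, more than the group difference of 0.36 (SE 0.31; adjusted p = 0.697 from limma, 0.00516 with the block). The group difference was 0.50 in the first set, where the groups did not overlap, and 0.22 in the second, where they did. Rfc5 had a lowest, median and highest level of 10.89, 11.20 and 11.56 against 10.67, 11.01 and 11.26, a difference of 0.23 (SE 0.12; adjusted p = 0.441, 0.0194 with the block) that was 0.23 in each set, with no overlap in either. Rfc2 had levels of 9.05, 9.19 and 9.33 against 8.93, 9.08 and 9.18, a difference of 0.13 (SE 0.06; adjusted p = 0.282), and its groups overlapped in both sets. Rfc3 had a difference of 0.19 (SE 0.14; adjusted p = 0.655).

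Primase and polymerase genes had differences from 0.06 to 0.23, and none passed limma with or without the set as a block. Pole, the catalytic subunit of the leading strand polymerase, had a lowest, median and highest level of 9.75, 9.84 and 9.92 in angiogenic islets and of 9.42, 9.71 and 9.78 in non angiogenic islets. Its difference was 0.18 (SE 0.06; adjusted p = 0.151 from limma), 5 of 6 non angiogenic arrays lay below every angiogenic one, and the groups separated in both sets. Pola2, the accessory subunit of the polymerase that carries primase, had levels of 9.20, 9.42 and 9.48 against 9.07, 9.24 and 9.33, a difference of 0.16 (SE 0.06; adjusted p = 0.195), with overlap in replicates 1 to 3 and none in replicates 4 to 6. Of the other genes of this group, Prim1 had 0.23 and Prim2 0.11 (the primase subunits), Fen1 0.19 and Lig1 0.09 (which trim and join lagging strand fragments), Pola1 0.06 and Pold1 0.06 (catalytic subunits of polymerases alpha and delta), and none had an unadjusted p under 0.05. Pcna, the sliding clamp itself, had a difference of 0.02 (95% interval -0.12 to 0.16) and angiogenic levels from 12.01 to 12.43 that enclosed the non angiogenic range of 12.11 to 12.20. Pcna is uncertain in one respect, since a further cluster that names it gave almost the same values (difference 0.02) and the probes may read near-identical copies.

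Ribonucleotide reductase gave the largest difference of all 42 genes. Rrm2, its small subunit, which limits the making of deoxynucleotides in S phase, had levels of 10.17, 9.98 and 10.10 in angiogenic and 9.62, 9.38 and 9.65 in non angiogenic replicates 1 to 3. In replicates 4 to 6 they were 10.56, 10.56 and 10.43 against 10.16, 10.05 and 10.05. The groups were apart in both sets, while non angiogenic replicates 4 to 6 lay within the range of angiogenic replicates 1 to 3. The difference was 0.48 (SE 0.14), a ratio of 1.40 with a 95% interval from 0.18 to 0.78 on the log2 scale, and an adjusted p of 0.0757 from limma. With the set as a block the SE was 0.06 and the adjusted p 3.98e-05, and Rrm2 alone of the 42 genes passed in each set taken by itself, with 0.53 (adjusted p = 0.0128) and 0.43 (adjusted p = 0.00777). Rrm1, the large subunit, had a lowest, median and highest level of 11.03, 11.22 and 11.31 against 10.86, 11.03 and 11.18, a difference of 0.18 (SE 0.06; adjusted p = 0.171, 0.0162 with the block), and its groups also separated in both sets. Tyms, thymidylate synthase, had levels of 10.17, 10.24 and 10.36 against 9.91, 10.09 and 10.19, a difference of 0.17 (SE 0.06; adjusted p = 0.133, 0.0536 with the block), with no overlap in either set. Tk1, thymidine kinase, had levels of 8.44, 8.56 and 8.79 against 8.45, 8.53 and 8.59 and a difference of 0.07 (SE 0.06; adjusted p = 0.707), with overlap in both sets. A further cluster that names Tk1 correlated with the one used by only 0.17 over the 12 arrays and had a difference of 0.13, so the value of this gene depends on the probes.

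**Figure D3:**
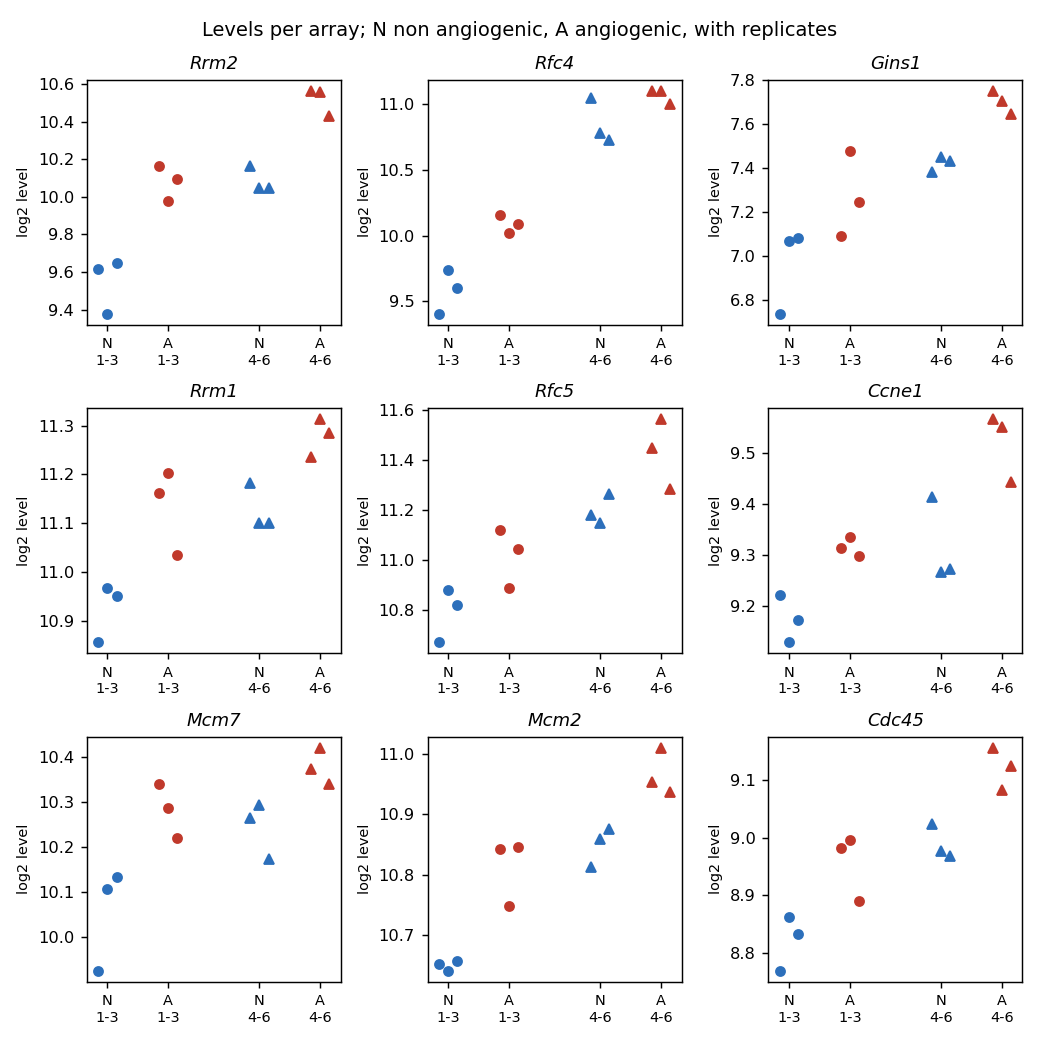
Log2 level in each of the 12 arrays of the 9 genes that passed limma with the set as a block, for non angiogenic (N, blue) and angiogenic islets (A, red), with replicates 1 to 3 as circles and replicates 4 to 6 as triangles and a scale of its own for each gene. In all but Rfc4 the red points lie above the blue points within each set, and for Rfc4, where the sets lie 1.12 apart, 1 blue point of replicates 4 to 6 reaches the red ones.

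The 3 chromatin genes, which rebuild and mark chromatin behind the fork, had differences of 0.08, 0.11 and 0.14, and none passed with or without the block. Uhrf1, which guides DNA methylation to the new strand, had a lowest, median and highest level of 8.81, 8.84 and 8.95 in angiogenic islets and of 8.57, 8.74 and 8.84 in non angiogenic islets. Its difference of 0.14 (SE 0.05) had an adjusted p of 0.213 from limma, and the groups did not overlap within either set. Chaf1b and Chaf1a are subunits of chromatin assembly factor 1. Chaf1b had levels of 9.32, 9.57 and 9.82 against 9.15, 9.51 and 9.65, a difference of 0.11 (SE 0.09; adjusted p = 0.695). Chaf1a had levels of 9.04, 9.08 and 9.22 against 8.89, 9.05 and 9.15, a difference of 0.08 (SE 0.06; adjusted p = 0.6). Both overlapped between the groups in each set.

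Among the E2F factors and E cyclins, 5 of 6 had a positive difference, against 40.1% of all genes. The block test called 1 of the 6, Ccne1, against 5.88% of all genes. E2f2, an activating factor, had a lowest, median and highest level of 7.97, 8.15 and 8.26 against 7.84, 7.99 and 8.03. Its difference was 0.18 (SE 0.06; adjusted p = 0.111 from limma), and 5 of 6 angiogenic arrays lay above every non angiogenic array, more than for any other of the 42 genes. Without angiogenic replicate 1 its adjusted p was 0.044 (difference 0.21). E2f7 and E2f8 encode repressing factors that are themselves E2F targets. E2f7 had levels of 10.19, 10.26 and 10.38 against 10.02, 10.14 and 10.26, a difference of 0.14 (SE 0.05; adjusted p = 0.193), and E2f8 had 9.38, 9.41 and 9.56 against 9.16, 9.28 and 9.47, a difference of 0.15 (SE 0.06; adjusted p = 0.197). For both, 5 of 6 non angiogenic arrays lay below every angiogenic array. The groups overlapped in replicates 1 to 3 for E2f2 and E2f7 and in replicates 4 to 6 for E2f8, and were apart in the other set. E2f1, the factor best known for driving S phase, had angiogenic levels from 9.85 to 10.07 inside the non angiogenic range of 9.79 to 10.09 and a difference of 0.03 (95% interval -0.09 to 0.14).

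The E cyclins start S phase with Cdk2, and the difference between the pair was not tested. Ccne1, cyclin E1, had a lowest, median and highest level of 9.30, 9.39 and 9.57 in angiogenic and of 9.13, 9.24 and 9.41 in non angiogenic islets, a difference of 0.17 (SE 0.06; adjusted p = 0.192 from limma, 0.0196 with the block). Its groups separated in both sets. Ccne2, cyclin E2, had the only negative difference beyond its SE, -0.13 (SE 0.06; adjusted p = 0.415, 0.255 with the block), with angiogenic levels from 9.52 to 9.83 and non angiogenic levels from 9.65 to just over 10, with overlap in each set. The 95% interval of Ccne2 ran from -0.26 to 0.01, and it was negative in both sets (-0.18 and -0.07).

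The sets themselves moved many of the 42 genes by as much as the groups did. Replicates 4 to 6 were higher than replicates 1 to 3 for 36 of 42 genes, and by more than 0.4 for 7, which were Rfc4 (1.12), Rfc3 (0.50), Rrm2 (0.49), Gins3 (0.47), Gins1 (0.44), Prim1 (0.42) and Rfc5 (0.41). The median set difference of the 42 genes was 0.10, and that of all genes -0.03, while the matching shares of all genes were not counted. Some other lists moved with the sets as well, by medians of 1.07 for acinar markers, 0.19 for macrophage markers, 0.16 for the further replication genes, 0.16 for the further E2F, retinoblastoma and cyclin D genes, 0.12 for further E2F targets and 0.12 for mitosis genes. Medians were 0.10 for pericyte, 0.09 for beta cell, 0.08 for fibroblast and 0.05 for other endocrine markers. They were 0.008 for endothelial, 0.002 for lymphocyte and -0.08 for erythroid markers. The part of these lists in the set difference of the 42 genes was not tested. Of the 7 genes above 0.4, 4 passed the block test. Gins3 had a group difference of 0.01, with a 95% interval from -0.30 to 0.32 and an SE of 0.07 with the block. A legend of the study mentions 2 independent profiling experiments without assigning arrays to them, so whether they are the 2 sets is not known, and how many of the 6 arrays of a group are independent was not tested.

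**Figure D4:**
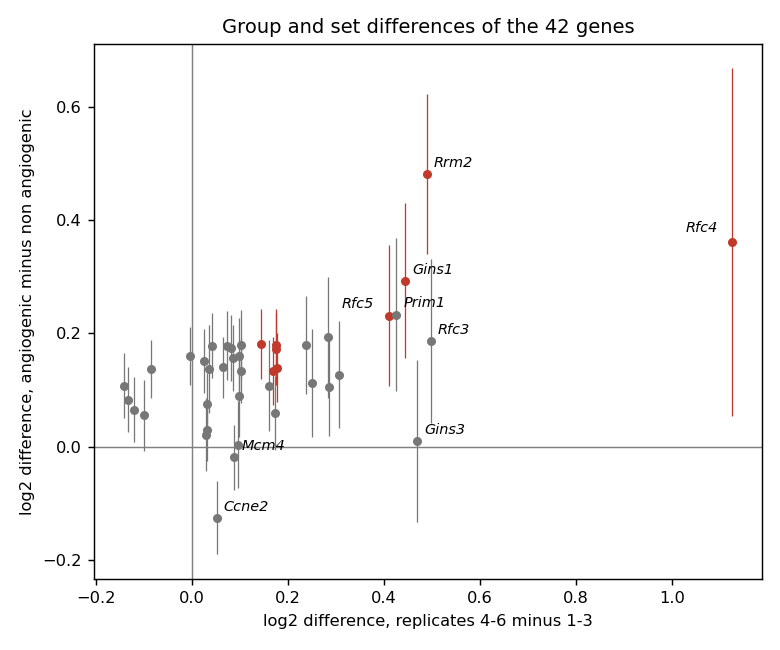
Log2 difference between the groups (vertical, with SE) against the log2 difference between replicates 4 to 6 and replicates 1 to 3 (horizontal) for each of the 42 genes, with the 9 genes that passed the block test in red. Rfc4 lies farthest to the right at 1.12, and 36 of 42 genes lie to the right of 0. The median set difference of all genes was -0.03, and their share to the right of 0 was not counted.

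The median difference was smaller in lists of the same pathway outside the 42 genes and larger in a list of mitosis genes. Of 43 further replication genes measured, limma called 1 higher and 0 lower after adjustment (7 and 0 before it), and the median difference was 0.07. Of all genes, 3.55% were higher and 0.948% lower after adjustment (7.76% and 6.59% before it). With the set as a block these shares were 5.88% and 2.74%. The 1 gene was Ticrr, a factor that helps load Cdc45, with a level of 8.98 ± 0.10 (SD, n = 6) in angiogenic and 8.71 ± 0.07 in non angiogenic islets (adjusted p = 0.00842). With the set as a block Asf1b, a histone chaperone, passed too (difference 0.23, adjusted p = 0.00747). The counts of 1 and, with the block, 2 of the 43 genes lie near the shares of all genes. Of 16 further E2F targets, 2 were higher and 0 lower, with a median of 0.07. These were Ccna2, cyclin A2, with 11.65 ± 0.06 against 11.42 ± 0.05 (adjusted p = 0.0065), and Mybl2, a factor of the S and G2 phases, with 8.93 ± 0.06 against 8.75 ± 0.06 (adjusted p = 0.0364). With the block 4 of the 16 passed, as Melk, a kinase of dividing cells (difference 0.33, adjusted p = 0.00599), and Exo1, a repair exonuclease (difference 0.15, adjusted p = 0.0311), joined them. Asf1b, Melk and Exo1 were named after their values had been seen.

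The other E2F factors and the genes that regulate E2F had no common direction. Of 15 genes for other E2F factors, their partners, retinoblastoma proteins, D cyclins, their kinases and inhibitors, 7 had a positive difference. The share of all genes was 40.1%. The median of the 15 was -0.01, and that of all genes -0.02. Limma called 1 higher and 0 lower (adjusted p under 0.05; 2 and 2 unadjusted), against 3.55% and 0.948% of all genes. The gene called was Cdk6, a kinase that D cyclins activate, with 7.88 ± 0.16 (SD, n = 6) in angiogenic and 7.59 ± 0.12 in non angiogenic islets (adjusted p = 0.0442). With the block Cdk6 was higher and Ccnd2, cyclin D2, was lower (difference -0.30, adjusted p = 0.0374), the latter named after its value had been seen. Of 25 mitosis genes, all 25 had a positive difference with a median of 0.23, 9 were higher by limma with adjustment, and 18 with the block. The share of all genes with a positive difference was 40.1%, and the shares higher were 3.55% and, with the block, 5.88%. The 3 largest differences among those 9 were Kif20a, a motor of cell cleavage, at 0.37 (SE 0.09; adjusted p = 0.0264), Cdc20, an activator of the anaphase complex, at 0.34 (SE 0.08; adjusted p = 0.0193), and Plk1, a mitotic kinase, at 0.33 (SE 0.07; adjusted p = 0.0166). An E2F core stood in the window of 1 of 22 mitosis genes (4.55%) and a CCAAT box in 18 (81.8%), while 21 of the 34 replication and E2F target genes with a window held a CCAAT box (61.8%), against 41.1% of all genes. Of the 42 genes, the 34 with a window were split by the core. The 15 with a core had a median difference of 0.14 and 1 call with the block (Mcm7). The 19 without had 0.16 and 7 calls, and 5.88% of all genes were called higher with the block. The 8 genes without a window, Gins1 among them, were left out of this split. These lists are described side by side, and no difference between them was tested.

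**Figure D5:**
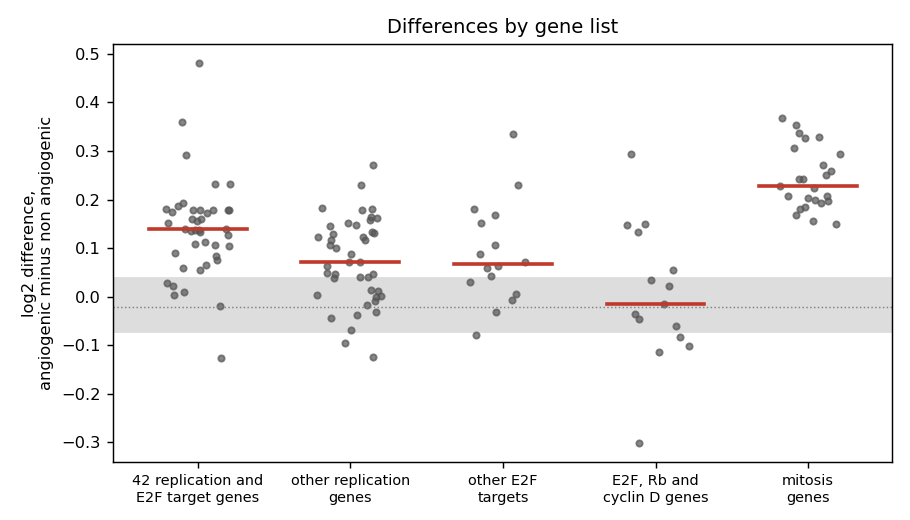
Log2 difference, angiogenic minus non angiogenic, of each gene (points) of the 42 replication and E2F target genes and of 4 further lists, with the median of each list as a red line. The grey band holds the middle of all genes from the lower to the upper quartile (-0.07 to 0.04), and the medians are 0.14, 0.07, 0.07, -0.01 and 0.23 from left to right.

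Markers of other cell types also differed between the groups. Of the measured markers, 10 of 12 endothelial, 8 of 8 pericyte and smooth muscle, 7 of 8 fibroblast and 6 of 8 macrophage genes passed limma as higher (adjusted p under 0.05), with median differences of 0.54, 0.83, 1.42 and 0.56. Of all genes 3.55% were higher and 0.948% lower in this test, and 5.88% and 2.74% with the set as a block. Array means of the fibroblast list ran from 9.50 to 9.83 in angiogenic and from 8.17 to 8.62 in non angiogenic islets, those of the pericyte list from 8.65 to 9.11 and from 7.90 to 8.09, those of the endothelial list from 9.62 to 9.77 and from 9.11 to 9.30, and those of the macrophage list from 8.22 to 8.58 and from 7.77 to 8.03. In none of these 4 lists did the groups overlap, and on this scale no marker has a value of 0. Of 6 measured markers of other endocrine cells, Gcg, Sst and Pyy were lower, and array means of the whole list of 6 ran from 10.65 to 10.92 against 11.06 to 11.13. Of 11 beta cell markers Ucn3 was lower, and with the set as a block Nkx6-1 (adjusted p = 0.0179) and Slc2a2 (adjusted p = 0.0407) were lower too. Lymphocyte, acinar and erythroid markers had 0 genes past the threshold in either direction by limma and, at an unadjusted p under 0.05, 1 lower of 5, 0 of 8 and 1 higher of 5. With the set as a block, 1 lymphocyte marker was lower (Cd79a, difference -0.65, adjusted p = 0.0342) and 1 erythroid marker higher (Alas2, difference 0.45, adjusted p = 0.0104), while the acinar list still had 0. The block also called all 12 endothelial, 8 pericyte, 8 fibroblast and 7 of 8 macrophage markers higher, and 3 other endocrine markers lower. With each array's acinar mean added to the model, the median difference of the 42 genes was 0.14 and 0 passed. The part of any of these cells in the differences of the replication genes was not tested.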

How the data were processed

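Total RNA from 12 pools of islets was measured on Affymetrix gene arrays. The deposited table holds 1 log2 level for each transcript cluster and array, made by the authors, whose processing notes name RMA and Affymetrix Expression Console. RMA corrects background, brings arrays to 1 distribution and summarises probes, so a change in RNA per islet is not visible and weak signals are compressed. The sources used here give neither versions nor scan dates, and do not state if RMA was run on all arrays at once. The replicate numbers 1 to 3 and 4 to 6 were used as 2 sets.

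Clusters were named through the platform annotation, those with 1 symbol (21789 of 35556) were kept, 1621 had several and 12146 were unnamed. The brightest cluster was used for the 999 genes with several. All 42 genes matched the RefSeq table by gene identifier and 0 symbols changed. Promoters came from RefSeq (GRCm38.p6). Groups were compared in R 4.3.3 with limma 3.58.1 (lmFit, eBayes, two-sided) on all 19938 genes, with Benjamini-Hochberg adjustment over all of them and a threshold of 0.05, and the fit was tested on simulated data. The members and lists were chosen with earlier results of these data known. Full values go, in each role group, to the 4 genes of smallest p, to genes past the threshold with or without the set as a block, and to genes with an array far from its group. Of pathway and mitosis lists the 3 largest differences past the threshold are named, and marker lists are given by counts.

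The alternatives were the set or the replicate number as a block, each set alone, an unpaired t-test with its p adjusted or not, array weights, a limma trend, quantile normalization, median centring, dropping the dimmest 25% of genes, averaging a gene's clusters, the acinar mean as covariate and leaving out each array. The study names BRB-ArrayTools for the choice of its array genes, and that software was not run here. The study's RT-qPCR, stainings and human cohorts were not used here. Some genes of the further lists are not reported here.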

Additional observations from a re-analysis of the deposited data

Results flagged for a closer look

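Among 106 groups of 6 values examined for a single array far from the rest, 4 had one, and chance alone marks about 1 in 20 groups. Orc1 was at 6.65 in non angiogenic replicate 3, while the other 5 non angiogenic arrays lay between 7.02 and 7.19. Mcm5 was at 10.50 in angiogenic replicate 1, and the other 5 angiogenic arrays lay between 10.26 and 10.34. The mean of the lymphocyte markers was 6.89 in non angiogenic replicate 4, against 5.90 to 6.07 in the other 5. The mean of the acinar markers was 7.83 in angiogenic replicate 2, against 9.99 to 10.98 in the other 5.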

How the results depend on the processing

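By limma with adjustment 0 of the 42 genes were higher, and this count moved to 9 with the set as a block, to 8 with the replicate number as a block, to 2 in replicates 1 to 3 and 2 in replicates 4 to 6 alone, to 1 with array weights (Rrm2), to 2 with quantile normalization (Rrm1 and Rrm2) and to 17 by the unpaired t-test without adjustment. The shares of all genes higher in these fits were 5.88%, 5.31%, 2.37%, 3.11%, 3.73%, 3.74% and 7.67%, so that counts of 1 or 2 of the 42 lie near the background. Leaving out 1 array gave 0 to 1, with 2.77% to 3.59% of all genes higher. The genes were Rrm2 without non angiogenic replicate 4 and E2f2 without angiogenic replicate 1. The count was 0 with a limma trend, median centring, dim genes left out, the mean of all clusters, the acinar covariate and the adjusted t-test. No gene of the 42 was lower in any of these fits. The interaction test of group and set called 0 of the 42 in each fit where it was run. These were the main fit, the limma trend, median centring, quantile normalization, the mean of all clusters and the fits without 1 array. The median difference stayed positive, from 0.12 to 0.16. Arrays of the same replicate number deviated together by correlations of 0.43, 0.38, 0.03, 0.54, 0.42 and 0.30 for replicates 1 to 6. The deviations were taken from the mean of all 6 arrays of a group, so the difference between the sets enters them. These values therefore cannot tell a pairing of samples from the sets. The main fit took the samples as unpaired, and whether the numbers pair them is not known. With the replicate number as a block Mcm3, Gins1, Rfc4, Prim1, Rrm1, Rrm2, Tyms and Ccne1 passed, 5 of them also with the set as a block, and 1058 of all genes were higher and 449 lower. Cdc6, at 0.00366, turned to -0.0625 in replicates 1 to 3, to -0.0145 with median centring, to -0.0157 with quantile normalization and to -0.0205 with the acinar covariate, and ranged from -0.0411 to 0.0602 when 1 array was left out. The cause of these shifts was not tested. Leaving out the dimmest 25% of genes removed 0 of the 42, but no detection call was available, and Orc1 and Gins1 lay below the median level of all genes.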
